A study of Homo sapiens with 4 samples.

Results

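The genes described here are those of MHC class I and its peptide loading: the heavy chain genes HLA-B, HLA-C, HLA-E and HLA-F, the light chain gene B2M, the transporter genes TAP1 and TAP2, the tapasin gene TAPBP and the class I transactivator gene NLRC5. They were chosen by symbol, and every RefSeq row with such a symbol was taken, which gave 9 genes of the 16490 with values and 13 rows of the 28581 with values. RNA-seq was performed on MV4-11, an established human AML cell line, infected with a lentiviral hairpin and selected with puromycin. The control cells carried sh-NC (2 libraries), and the cells with CEBPG knockdown carried sh-CEBPG#3 (2 libraries). The CEBPG hairpins were built in the pLKO.1-puro vector, and the study does not name the vector of sh-NC. CEBPG encodes a leucine-zipper transcription factor, and the comparison asked which genes change upon its knockdown. As the libraries used here hold 1 CEBPG hairpin in 1 cell line, an effect of the hairpin and an effect of CEBPG cannot be told apart. The sources used here do not say whether replicate libraries stem from separate infections. The p-values therefore set the group difference only against the spread between these libraries, which limma pools in part over all genes.

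MHC class I molecules carry short peptides from inside the cell to its surface, where CD8 T cells and natural killer cells read them. Each consists of a heavy chain, which is highly polymorphic in the classical molecules, and the invariant light chain beta-2 microglobulin. Peptides cut by the proteasome are pumped into the endoplasmic reticulum by the TAP1-TAP2 transporter, and tapasin holds the empty heavy chain beside the transporter until a peptide is bound, with calreticulin and ERp57 as partners. Transcription of these genes is known to be driven by NLRC5 together with the RFX and NF-Y factors, and to be raised by interferons through the STAT and IRF factors.

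Of the 9 genes, 7 lie on chromosome 6 in the MHC region (GRCh38.p14 positions from RefSeq). HLA-F spans chr6:29723434-29738532, HLA-E chr6:30489509-30494194, HLA-C chr6:31268749-31272092 and HLA-B chr6:31353875-31357179. TAP2 (chr6:32821831-32838739) and TAP1 (chr6:32845209-32853704) flank the immunoproteasome gene PSMB8, and 487 bases separate the start of TAP1 from that of PSMB9, which runs the opposite way. TAPBP spans chr6:33299694-33314078. B2M lies outside the MHC at chr15:44711517-44718145, and NLRC5 at chr16:56989557-57083520.

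The promoters are shown because they hold sequences of the kind that interferon-linked factors are known to bind. Binding was not measured here, and a link between these sequences and the change of the genes was not tested. RefSeq promoter sequences were at hand for 7 of the 9 genes, and those of HLA-E and NLRC5 were not used here. The 200 bases before the start of each of 5 genes are printed 5′ to 3′ along the strand of the gene, with capitals marking each match to AANNGAAA (the consensus of IRF factors) or to GAAANNGAA (a core of the interferon-stimulated response element, ISRE) on either strand. These 2 motifs overlap each other, and AANNGAAA was added after the promoters had been read.
HLA-B, chr6:31357180-31357379, minus strand: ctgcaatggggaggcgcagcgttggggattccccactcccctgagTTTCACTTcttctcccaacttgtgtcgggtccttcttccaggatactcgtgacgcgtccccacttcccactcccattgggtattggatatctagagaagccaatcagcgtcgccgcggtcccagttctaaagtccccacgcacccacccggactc
HLA-C, chr6:31272093-31272292, minus strand: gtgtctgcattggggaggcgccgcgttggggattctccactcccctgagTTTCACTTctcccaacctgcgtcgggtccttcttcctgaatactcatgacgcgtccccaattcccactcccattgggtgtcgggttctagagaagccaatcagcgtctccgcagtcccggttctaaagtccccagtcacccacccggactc
B2M, chr15:44711317-44711516, plus strand: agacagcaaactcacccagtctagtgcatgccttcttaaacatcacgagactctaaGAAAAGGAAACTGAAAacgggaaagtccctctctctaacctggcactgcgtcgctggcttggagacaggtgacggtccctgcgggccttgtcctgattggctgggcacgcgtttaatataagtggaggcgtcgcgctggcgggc
TAP1, chr6:32853705-32853904, minus strand: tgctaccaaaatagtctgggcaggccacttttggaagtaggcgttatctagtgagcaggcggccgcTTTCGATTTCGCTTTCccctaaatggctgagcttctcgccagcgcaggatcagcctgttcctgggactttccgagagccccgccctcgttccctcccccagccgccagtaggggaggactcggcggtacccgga
TAPBP, chr6:33314079-33314278, minus strand: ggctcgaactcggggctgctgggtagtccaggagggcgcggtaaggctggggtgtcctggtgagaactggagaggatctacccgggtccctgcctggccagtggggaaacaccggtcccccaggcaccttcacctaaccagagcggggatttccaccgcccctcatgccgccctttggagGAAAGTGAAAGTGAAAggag

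All 7 promoters searched (250 bases before to 50 bases after the start) held at least 1 match to AANNGAAA, against 22.8% of the 35116 RefSeq promoters of the same length. Because AANNGAAA was picked after these promoters had been read and overlaps GAAANNGAA, this count describes them and cannot serve as a test. Matches to GAAANNGAA were found in 5 of the 7 (B2M, HLA-F, TAP1, TAP2 and TAPBP), against 8.11% of all promoters. In HLA-B and HLA-C the capitals mark the same 8 letters, at position -155 to -148 of HLA-B and -151 to -144 of HLA-C. TAPBP has its matches closest to the start, from -20 to -5, within the repeat in capitals. The letters GGGNNTTCC (NF-kB) were found in 3 of the 7, among them HLA-B at -177 to -169, against 6.58%, and CCAAT (NF-Y) in 5 of the 7, against 34.6%. The letters TGACG (a core of sites for CREB and ATF factors) were found in 4 of the 7, against 24.6%. No match was found to TGATGNAA (a C/EBP-ATF site, 3.62% of all promoters) or TTCNNNGAA (a STAT site, 7.66%) in these 7 windows. The letters TTGCNNCAA (1.98%), searched as a C/EBP site, were not found in them either. These letters hold 1 base more in the middle than the palindrome that C/EBP factors are known to bind, and cannot match it. Whether these promoters hold that palindrome was therefore not tested. Both strands were searched, and a match is a run of letters, not a site shown to be bound.

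The values are FPKM, fragment counts divided by exon length and by the mapped reads of the library, which are scaled for length and so allow levels to be compared between genes. Their totals per library lay between 364353 and 389766, and their depth is unknown because they carry no read counts. Across the 12142 genes tested, whose mean reached 0.5 FPKM, Pearson's r between libraries was 0.993 within sh-NC, 0.994 within sh-CEBPG#3 and from 0.962 to 0.964 across the groups. The targeted gene CEBPG had 30.4 and 33.6 FPKM with sh-NC against 19.2 and 17.1 FPKM with sh-CEBPG#3. Of the markers of MV4-11 and myeloid cells, all 7 had values, and their summed level was 884 and 962 FPKM with sh-NC against 3537 and 3365 FPKM with sh-CEBPG#3, mostly from LYZ, the lysozyme of myeloid cells (log2 fold change 2.37). Of the 7, 4 rose (LYZ, MPO, CD33 and SPI1), 2 fell and 1 did not pass, against 18.5% of all genes tested that rose and 23.8% that fell. Those that fell were the homeobox genes MEIS1 (-0.87, limma adjusted p = 8.31e-05) and HOXA9 (-0.36, limma adjusted p = 0.0167), and the receptor kinase FLT3 had a log2 fold change of -0.14. Of the 12 alternative fits described below, the call was lost in 3 for HOXA9, 2 for CD33 and 2 for SPI1. Of the B-cell markers 1 of 2 had a value (CD79A, 0.707 to 1.33 FPKM). Of the T and NK markers 2 of 5 had values (56.2 to 67.1 FPKM in sum over the libraries), while CD3D, CD3E and CD8A were not analysed here. NKG7, a granule protein of cytotoxic cells, rose from 42.2 and 42.3 FPKM with sh-NC to 53.4 and 55.8 FPKM with sh-CEBPG#3 (limma adjusted p = 0.00265), and NCAM1 fell (log2 fold change -0.28, limma adjusted p = 0.0260). The call of NCAM1 was lost in 5 of the 12 alternatives. Of the epithelial markers 2 of 5 had values (12.1 to 16.0 FPKM in sum), without EPCAM, CDH1 and KRT19. KRT8, a keratin of simple epithelia, rose from 2.29 and 2.35 FPKM with sh-NC to 6.26 and 6.19 FPKM with sh-CEBPG#3 (log2 fold change 1.12, limma adjusted p = 1.55e-05), and its partner KRT18 had a log2 fold change of -0.14 (limma adjusted p = 0.261). The call of KRT8 was lost in 1 of the 12 alternatives. KRT8 and NKG7 were thus higher in both knockdown libraries, which held for 31.5% of all genes tested. NCAM1 and KRT18 were lower in both. The part of these markers in the results was not tested. In bulk RNA, a change in the number of cells that express a gene and a change per cell cannot be told apart.

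Upon CEBPG knockdown, the class I genes were higher, with B2M and TAP1 past a 2-fold change on the log2(FPKM + 1) scale. Among the 8 genes tested, 7 rose at an adjusted p under 0.05 (limma with Benjamini-Hochberg adjustment over all 12142 genes) and none fell, whereas 18.5% of all genes tested rose and 23.8% fell. In all 8 genes both sh-CEBPG#3 libraries were above both sh-NC libraries, which held for 31.5% of all genes tested. The median log2 fold change of the 8 genes was 0.68, and that of all genes tested was -0.04. Beyond the threshold of an unadjusted p under 0.05 and a log2 fold change above 1 were 2 of the 8, against 2.36% of all genes tested. The ninth gene, HLA-F, was too low to be tested.

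**Figure D1:**
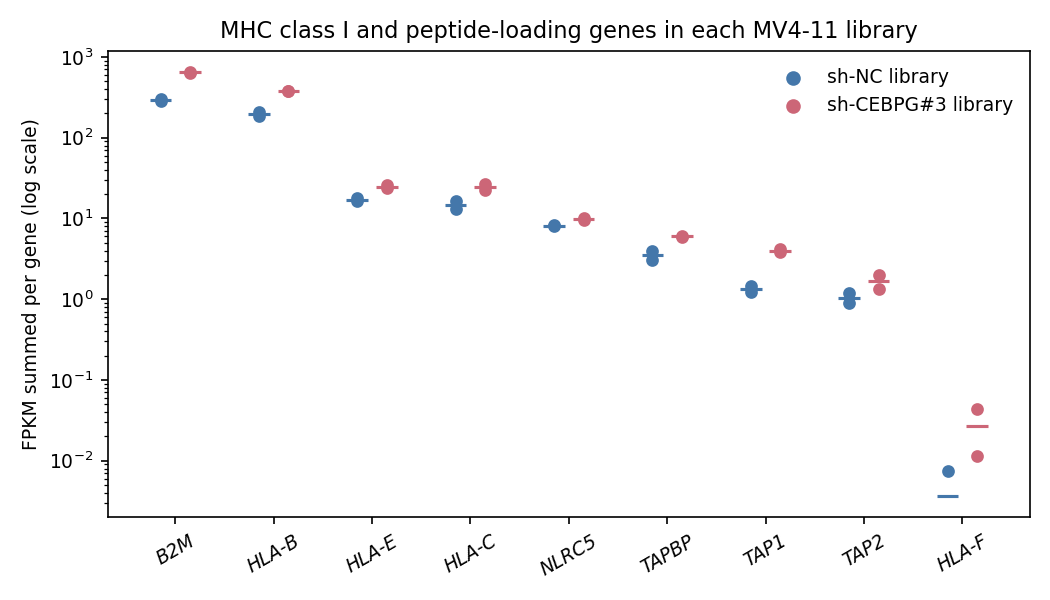
FPKM of each gene (summed over its RefSeq rows, log axis) in each library, with sh-NC in blue and sh-CEBPG#3 in red and a line at the mean of the 2 libraries. The red points of each gene lie above its blue points, from B2M at 283 to 652 FPKM down to HLA-F under 0.05 FPKM, where the sh-NC library listed at 0 is not drawn.

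B2M, the light chain shared by all classical class I molecules, was the most abundant of the 9 genes. It had 283 and 298 FPKM with sh-NC against 652 and 632 FPKM with sh-CEBPG#3. The mean went from 290 ± 10.6 to 642 ± 14.3 FPKM (SD, n = 2 each), a ratio of 2.21. The groups were apart by far more than the spread within either, with a log2 fold change of 1.14 (SE 0.07, limma adjusted p = 1.41e-06). By the gain in mean FPKM, B2M ranked 16 among all genes tested, and by log2 fold change it ranked 207.

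HLA-B, a classical heavy chain that presents peptides to CD8 T cells, was the most abundant of the 4 heavy chains. It had 184 and 209 FPKM with sh-NC against 379 and 380 FPKM with sh-CEBPG#3. The mean went from 196 ± 17.7 to 379 ± 1.07 FPKM (SD, n = 2 each), and the log2 fold change was 0.95 (SE 0.08, limma adjusted p = 1.07e-05). The 95% confidence interval of 0.78 to 1.12 includes a 2-fold change. The gain of HLA-B ranked 21 among all genes tested.

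HLA-C, the classical heavy chain that also serves as the main ligand of killer-cell immunoglobulin-like receptors, lay far below HLA-B in FPKM. It had 13.1 and 16.6 FPKM with sh-NC against 26.8 and 22.7 FPKM with sh-CEBPG#3, so the groups did not overlap although the libraries of each differed by several FPKM. Its log2 fold change was 0.71 (SE 0.12, limma adjusted p = 0.000963).

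HLA-E is a nonclassical heavy chain that displays leader peptides of other class I chains to the NKG2A receptor of natural killer cells. It had 16.4 and 17.9 FPKM with sh-NC against 25.6 and 23.9 FPKM with sh-CEBPG#3. Its log2 fold change was 0.51 (SE 0.08, limma adjusted p = 0.000901). HLA-E and HLA-C overlapped in both groups, and their order could not be told from these libraries.

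HLA-F, a nonclassical heavy chain, was at or near 0 in every library through its single listed row. It was listed at 0 and 0.00735 FPKM with sh-NC and at 0.0431 and 0.0115 FPKM with sh-CEBPG#3, and no fold change is given. Heavy chain genes share long near-identical stretches and are polymorphic, so the division of reads between them is uncertain, and sums over heavy chains below cover these 4 genes only.

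Summed over HLA-B, HLA-C, HLA-E and HLA-F, the heavy chains had 213 and 243 FPKM with sh-NC against 431 and 427 FPKM with sh-CEBPG#3, a ratio of means of 1.88. HLA-B made up 86.2% and 85.8% of this sum with sh-NC against 87.8% and 89.1% with sh-CEBPG#3, higher in both knockdown libraries. HLA-E made up 7.70% and 7.35% with sh-NC against 5.95% and 5.59% with sh-CEBPG#3, so its share was lower in both knockdown libraries. HLA-C took 6.13% and 6.82% with sh-NC against 6.22% and 5.32% with sh-CEBPG#3, and here the groups overlapped. B2M per heavy chain FPKM was 1.33 and 1.22 with sh-NC against 1.51 and 1.48 with sh-CEBPG#3. These ratios are free of the scaling between libraries. For the HLA-B share and the B2M ratio the exact two-sided permutation test gave p = 0.333, the smallest p that 2 libraries against 2 allow. The 9 genes together took 0.140% and 0.143% of all FPKM with sh-NC against 0.284% and 0.287% with sh-CEBPG#3.

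**Figure D2:**
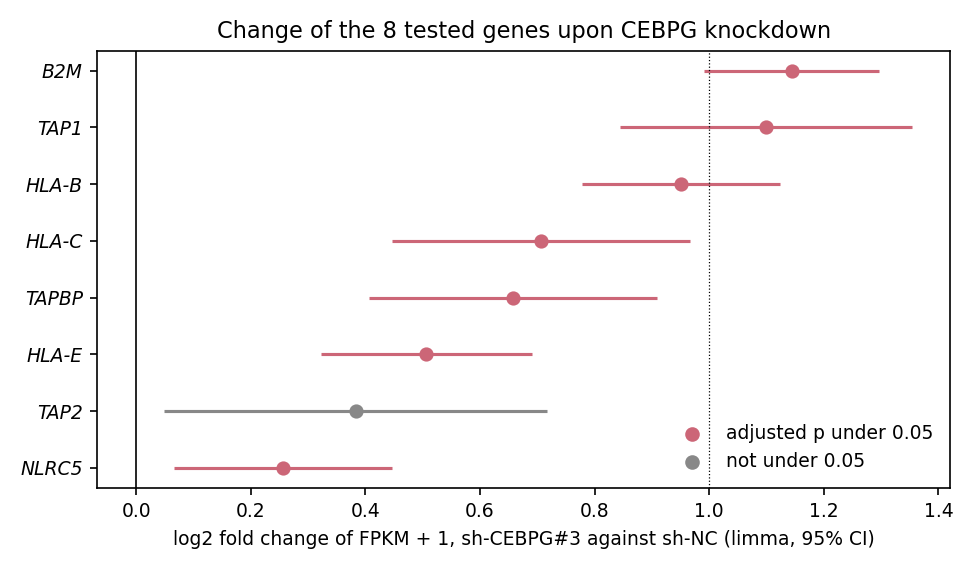
Log2 fold change of FPKM + 1 for the 8 genes tested, with points at the limma estimate and bars for its 95% confidence interval, in red where the adjusted p was under 0.05. The estimates run from 0.26 for NLRC5 to 1.14 for B2M, TAP2 is in grey, and the dotted line marks a log2 fold change of 1.

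Among the loading genes, TAP1 had the largest estimate. TAP1 encodes a subunit of the peptide transporter and had 1.21 and 1.47 FPKM with sh-NC against 3.84 and 4.17 FPKM with sh-CEBPG#3. The ratio of means was 2.99, and on the log2(FPKM + 1) scale, which understates changes of low genes, the fold change was 1.10 (SE 0.11, limma adjusted p = 5.32e-05). Almost all of it came from 1 row, NM_000593, which held between 97.0% and 99.7% of the TAP1 FPKM.

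TAP2, the other subunit of the transporter, had 1.18 and 0.894 FPKM with sh-NC against 1.99 and 1.35 FPKM with sh-CEBPG#3. The groups did not overlap, but the log2 fold change of 0.38 (SE 0.15, 95% confidence interval 0.05 to 0.72) missed the threshold at a limma adjusted p = 0.0638. The size of the change depended on single libraries. The log2 fold change was 0.49 without sh-NC replicate 1 and 0.28 without sh-NC replicate 2. It was 0.21 without sh-CEBPG#3 replicate 1 and 0.56 without sh-CEBPG#3 replicate 2. With the replicate number as a block, TAP2 passed (limma adjusted p = 0.0311). The log2 fold change was the same in that fit and the SE was 0.151, so the block did not make the estimate more precise. The lower adjusted p thus came from neither, and the adjusted p of that fit and of the main fit are not on a common footing. Its 2 rows divided the level differently between the libraries of a group. NM_018833 held 75.5% of the TAP2 FPKM in sh-NC replicate 1 and 74.7% in sh-CEBPG#3 replicate 1, against 32.5% in sh-NC replicate 2 and 28.6% in sh-CEBPG#3 replicate 2. TAP1 per TAP2 was 1.03 and 1.64 with sh-NC against 1.93 and 3.08 with sh-CEBPG#3, higher in the latter by values that also spread widely.

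TAPBP encodes tapasin, the bridge between the transporter and the heavy chain. It had 3.92 and 3.05 FPKM with sh-NC against 5.96 and 6.14 FPKM with sh-CEBPG#3, with a log2 fold change of 0.66 (SE 0.11, limma adjusted p = 0.00122). Its 3 rows were divided unevenly, and NM_003190 held 20.3% and 83.6% of the TAPBP FPKM with sh-NC against 99.7% and 78.5% with sh-CEBPG#3. With NM_003190 standing for the gene, the log2 fold change was 1.33 (limma adjusted p = 0.0475), so the size of the change depended on how the rows were combined.

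**Figure D3:**
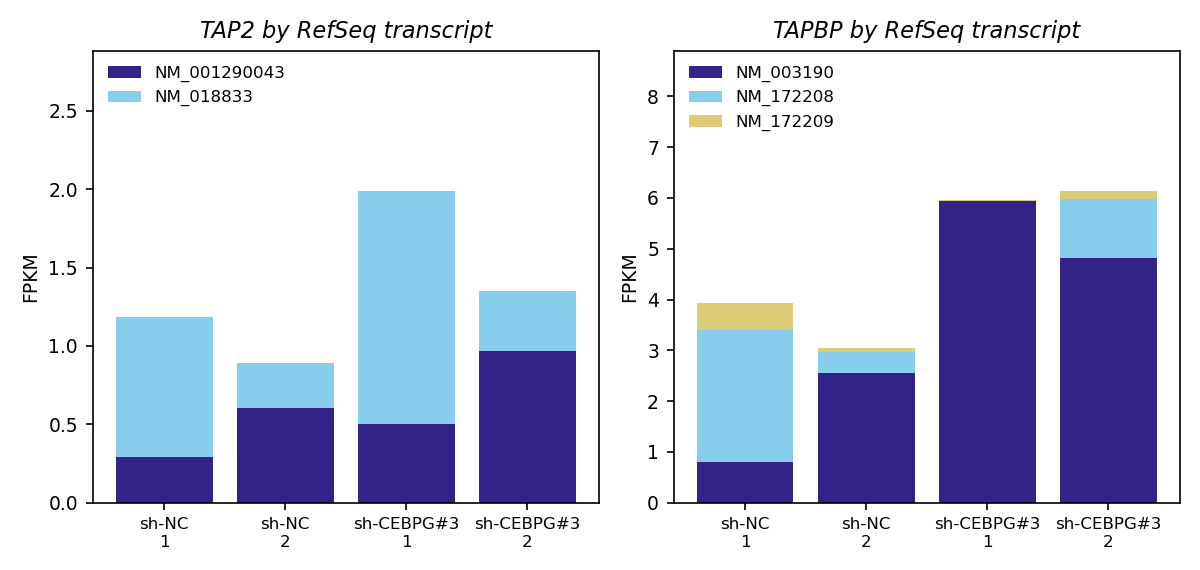
FPKM of each RefSeq row of TAP2 (left) and TAPBP (right), stacked to the gene's sum in each library. The sums are higher in both sh-CEBPG#3 libraries, while the division into rows differs between libraries of the same group, as in sh-NC, where NM_003190 held 20.3% and 83.6% of TAPBP.

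NLRC5, the transactivator of class I genes, had the smallest estimate among the 7 genes that rose. It had 7.96 and 8.23 FPKM with sh-NC against 10.1 and 9.65 FPKM with sh-CEBPG#3, a ratio of means of 1.22. Its log2 fold change was 0.26 (SE 0.09, limma adjusted p = 0.0341). The call was lost in 7 of 12 alternatives, including the fit without any 1 of the 4 libraries (adjusted p from 0.0581 to 0.140 in limma) and the fit with the replicate number as a block (limma adjusted p = 0.0766), while the log2 fold change stayed between 0.23 and 0.31.

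In order of level in the sh-NC libraries, B2M and HLA-B came first, at 98.8% and 98.2% of the way up the genes tested. They were followed by HLA-E, HLA-C, NLRC5, TAPBP, TAP1, TAP2 and HLA-F. HLA-E and HLA-C were the only neighbours whose libraries overlapped within either group. The sh-CEBPG#3 libraries gave the same order, and there HLA-E and HLA-C both had a mean of 24.8 FPKM. The loading genes thus sat low in this order, with TAP1 and TAP2 above 12.0% and 8.94% of the genes tested in sh-NC cells.

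The genes whose values over the 4 libraries were most like those of B2M, by the root mean square difference of log2(FPKM + 1) centred on the sh-NC mean, were ACSL1 (0.02), TNFAIP2 (0.02) and GLA (0.02). Those most like NLRC5 were SRGN (0.002), MACROH2A1 (0.008) and IBTK (0.008). With 4 libraries in 2 groups, this likeness rests almost wholly on the size of the group difference.

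Of 11 loading partners, 4 rose, 2 fell and 5 did not pass the test, with a median log2 fold change of -0.05, against 18.5% of all genes tested that rose and 23.8% that fell. CALR, the calreticulin that stabilises the empty heavy chain, had 1438 and 1565 FPKM with sh-NC against 533 and 527 FPKM with sh-CEBPG#3. Its log2 fold change of -1.50 (limma adjusted p = 2.88e-07) was opposite to those of the class I genes, and 1.05% of all genes tested fell past 2-fold. PDIA3, which encodes ERp57, also fell (log2 fold change -0.32, limma adjusted p = 0.00697), but did not pass without sh-CEBPG#3 replicate 2 (limma adjusted p = 0.108). The members of the list that rose were GANAB, a subunit of glucosidase II that trims the sugars of new glycoproteins (0.70), TAPBPL, a tapasin-like peptide editor (0.41), HM13, the signal peptide peptidase that releases the leader peptides shown by HLA-E (0.37), and BCAP31, an export receptor of the endoplasmic reticulum (0.29), each at a limma adjusted p of at most 0.0102. With the most abundant row standing for each gene, 2 of these 4 were lost, GANAB (log2 fold change 0.25) and BCAP31 (0.25), and BCAP31 was also lost without sh-CEBPG#3 replicate 1 (limma adjusted p = 0.163). CANX, the chaperone of new heavy chains, had a log2 fold change of -0.11 (limma adjusted p = 0.253). The trimming peptidases of the endoplasmic reticulum, ERAP1 and ERAP2, had log2 fold changes of 0.18 (limma adjusted p = 0.0914) and -0.16 (limma adjusted p = 0.183).

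The immunoproteasome supplies peptides suited to class I. Of its 6 genes, 3 rose and none fell (18.5% and 23.8% of all genes tested), although PSMB10 passed as lower with quantile normalization, with equal FPKM totals and without sh-NC replicate 1. The median log2 fold change was 0.24. Those that rose were PSME1 (0.41) and PSME2 (0.25), the subunits of the proteasome activator, and PSMB9 (0.37), a catalytic subunit, each at a limma adjusted p of at most 0.0310. PSMB9, whose start faces that of TAP1, had 3.85 and 4.93 FPKM with sh-NC against 5.48 and 6.43 FPKM with sh-CEBPG#3. PSMB8, which lies between TAP2 and TAP1, had a log2 fold change of 0.22 (limma adjusted p = 0.0627), and PSMB10 one of -0.17 (limma adjusted p = 0.0835). The count was 1 without sh-CEBPG#3 replicate 2, 5 without sh-NC replicate 2, 5 with equal FPKM totals and 6 with quantile normalization. Of the 3 constitutive subunits that the immunoproteasome replaces, PSMB5 rose (0.28, limma adjusted p = 0.0195), and PSMB6 (0.16) and PSMB7 (0.12) did not pass. Of the 12 alternatives, the call was lost in 5 for PSMB9, 5 for PSMB5 and 3 for PSME2.

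Of 17 transcription factors and coactivators known to act on class I genes (transcription factors below), 5 rose, 4 fell and 8 did not pass. Their median log2 fold change was 0.02. Among all genes tested 18.5% rose and 23.8% fell, so the shares of this list lay near those of the whole. IRF9, a DNA-binding factor of the interferon response, had 3.99 and 4.13 FPKM with sh-NC against 31.4 and 29.9 FPKM with sh-CEBPG#3. Its log2 fold change was 2.64, and that of its partner STAT2 was 1.51, each at a limma adjusted p of at most 4.61e-07, and both passed under all 12 alternatives. IRF2 (0.32, limma adjusted p = 0.0171) and RELA (0.21, limma adjusted p = 0.0492) rose by less. Among the RFX and NF-Y partners of NLRC5 on the class I promoter, RFX5 (-0.42), RFXAP (-0.40), NFYA (-0.45) and NFYB (-0.35) fell, each at a limma adjusted p of at most 0.0283. In contrast NFYC rose (0.24, limma adjusted p = 0.0344), and RFXANK had a log2 fold change of -0.16 (limma adjusted p = 0.150). The sign for RFXANK changed with the most abundant row standing for the gene (0.22, limma adjusted p = 0.417). Of the 12 alternatives, the call was lost in 8 for RELA, 6 for NFYC, 4 for IRF2, 4 for NFYB, 3 for RFXAP and 1 for RFX5. IRF1, an interferon-induced activator of class I genes, had a log2 fold change of 0.12 (limma adjusted p = 0.265), and CIITA, the class II transactivator, one of -0.01 (limma adjusted p = 0.969). The number that rose was 2 without sh-NC replicate 1, 2 without sh-CEBPG#3 replicate 1 and 3 in the blocked fit, in place of 5. The count of 9 called in either direction was 5 without sh-CEBPG#3 replicate 2, 4 with no filter and 3 with the most abundant row standing for each gene.

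Among other class I and class I-like genes, 5 of the 19 listed were tested, and 3 rose and 1 fell (18.5% and 23.8% of all genes tested). FCGRT, the heavy chain of the neonatal Fc receptor, which also pairs with B2M, had 24.9 and 28.1 FPKM with sh-NC against 56.1 and 49.7 FPKM with sh-CEBPG#3, with a log2 fold change of 0.97 (limma adjusted p = 2.29e-05). MR1, which presents vitamin metabolites, rose (0.30, limma adjusted p = 0.0169), but its call was lost when either sh-CEBPG#3 library was left out. ULBP1, which encodes a ligand of the activating receptor NKG2D, also rose (0.60, limma adjusted p = 0.00403). It had 0.767 and 0.971 FPKM with sh-NC against 1.76 and 1.89 FPKM with sh-CEBPG#3. The rise came mostly from its noncoding row NR_133659, with a mean of 0.474 FPKM with sh-NC and 1.42 FPKM with sh-CEBPG#3. Its coding row NM_025218 did not rise, with means of 0.394 and 0.328 FPKM. CD1D, which presents lipids, fell (-0.34, limma adjusted p = 0.0233), a call lost in 5 of the 12 alternatives, among them the fits without sh-NC replicate 1, without sh-NC replicate 2 and without sh-CEBPG#3 replicate 1 (limma adjusted p from 0.0643 to 0.0771). ULBP2 had a log2 fold change of 0.35 (limma adjusted p = 0.0682). The count of 4 was 2 without sh-CEBPG#3 replicate 1 and also with the most abundant row for each gene. MICA, a further NKG2D ligand, stayed under 0.5 FPKM in each library.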

How the data were processed

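The MV4-11 RNA-seq libraries (2 sh-NC, 2 sh-CEBPG#3) were prepared from total RNA. The authors filtered the reads and mapped them with HISAT2 2.0.5 to hg38 (per the submitters' processing notes), and deposited FPKM values per RefSeq row. The program that computed FPKM is not given in the sources used here. Groups were taken from the sample titles. Rows of a symbol were summed, and 199 of the 28780 rows have no value. Genes whose mean reached 0.5 FPKM were fitted on log2(FPKM + 1) with limma 3.58.1 in R 4.3.3 (lmFit, eBayes with a trend, no block), with Benjamini-Hochberg adjustment over all 12142 genes. The study used DESeq2, which takes counts and was not run. Among 1027 low rows (under 0.06 FPKM), at most 0.487% shared a ratio between the sh-NC libraries, so no steps of whole reads were seen. Promoters are RefSeq sequences of GRCh38.p14, searched with Python 3.11.15.

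The genes and lists were chosen with earlier results of these data known. The genes named are the 9 class I genes, CEBPG, the 6 genes of each list with the smallest p, and the 3 most like B2M and NLRC5; further list genes were added after their values were seen. No list was tested as a set, and some genes are not reported here. The fit was tested on simulated data. Alternatives tried were smaller pseudocounts (0.1, 0.01), a filter at 1 FPKM or none, equal FPKM totals, quantile normalization, a block for the replicate number, the most abundant row for each gene, and each library left out in turn, with the lone library of a group assumed to vary like the others.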

Additional observations from a re-analysis of the deposited data

How the results depend on the processing

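The direction of each of the 8 genes tested was the same under all 12 alternatives, and 86 of the 96 values stayed on their side of the threshold. The other 10 were 7 for NLRC5, which lost its call, and 3 for TAP2, which gained one. Of the 8 genes, 6 or 7 passed under every alternative and 2 or 3 passed the 2-fold threshold. With the most abundant row for each gene, the log2 fold change of TAPBP was 1.33 in place of 0.66, that of TAP2 was 0.25 (adjusted p = 0.632 in limma), 3 transcription factors passed in place of 9 and 2 other class I and class I-like genes in place of 4. With no filter 4 transcription factors passed. With quantile normalization 6 immunoproteasome genes passed and with equal FPKM totals 5, in place of 3, and PSMB10 was lower in both. With each library left out in turn, 6 to 7 class I genes passed, 2 to 3 passed 2-fold, 5 to 7 loading partners, 1 to 5 immunoproteasome genes, 5 to 8 transcription factors and 2 to 4 other class I and class I-like genes passed, and the HLA-B share was 1.83 to 3.09 percentage points and B2M per heavy chain 0.17 to 0.27 higher upon knockdown. The causes were not tested. Deviations from the group means in libraries of the same number had a correlation of 0.061 over the genes. When the number entered the fit as a block, 7 class I genes passed, with TAP2 (adjusted p = 0.0311 in limma) in place of NLRC5 (adjusted p = 0.0766 in limma). In that fit the SE was nearly the same for HLA-B (0.122), HLA-C (0.120) and HLA-E (0.120), so it came almost wholly from the variance pooled over genes. Its adjusted p, and those of the fits without an sh-NC library, are not on a common footing with the main fit. No test on counts was possible, so the precision of low genes such as TAP2 cannot be read from depth.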
